A study of Mus musculus with 16 samples.

Results

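The genes described here are 10 regulators of the G1 phase of the cell cycle, chosen by their symbols: the D-type cyclins Ccnd1, Ccnd2 and Ccnd3, the E-type cyclins Ccne1 and Ccne2, the kinases Cdk2, Cdk4 and Cdk6, and the inhibitors Cdkn1a and Cdkn1b. They are 10 of the 24169 genes of the FPKM table, and 16 of its 33701 RefSeq transcripts belong to them. All 10 were above 0 in every library and entered the test. The choice rests on the symbols alone, but it was made with earlier results of these data known. The RNA came from embryoid bodies (EBs), aggregates in which embryonic stem (ES) cells differentiate, made from the mouse ES cell line R1 in medium without Lif. Day 0 RNA was taken when the EBs were 4 days old and had received no retinoic acid (RA), and day 4 RNA after 4 further days with 2 μM RA. Each day had 2 biological replicates (n = 2), and every RNA was portioned into 4 vials with different IVT and ERCC spike-in mixes, from which 16 stranded, ribosomal RNA-depleted libraries were made. Vials are no further replicates, so an RNA sample is given as the mean of its 4 vials and the test compared 2 RNA samples with 2.

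No EBs of the later age without RA were among these libraries, so the effect of RA and that of 4 more days in culture cannot be told apart. EBs are mixed aggregates, and in bulk RNA fewer cells of a type and less RNA per cell cannot be told apart either.

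In the G1 phase a cell either commits to another round of DNA replication or leaves the cycle. D-type cyclins bind Cdk4 or Cdk6, and E-type cyclins bind Cdk2. These kinases phosphorylate the retinoblastoma proteins and so release the E2F factors that transcribe the genes of S phase. The inhibitors p21 (Cdkn1a) and p27 (Cdkn1b) bind the cyclin-kinase complexes. Mouse ES cells have a short G1 phase and are known to lengthen it as they differentiate.

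The deposited values are FPKM, fragments relative to the length of the transcript and to the mapped fragments of the library. The number of fragments behind a value is unknown. Levels of different genes are thus given per length, but the values also ran with the GC content of a transcript, as described below. Shares and orders of genes of unlike GC content have that limit. FPKM were summed over the RefSeq transcripts of a gene. Differences are on the log2(FPKM + 0.1) scale, day 4 minus day 0, with a standard error (SE) and a p-value of limma after Benjamini-Hochberg adjustment over all 20496 genes tested. A gene is called higher or lower where the adjusted p was at most 0.05. Of all 20496 genes, 16% were called higher and 14.5% lower at day 4, which is 30.5% in either direction.

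The mix 3 and mix 4 vials of day 0 replicate 2 stood apart from the other vials of that RNA. Their log2 values correlated at 0.909 to 0.943 with those of the mix 1 and 2 vials of the same RNA, while the vials of each other RNA sample correlated with each other at 0.979 to 0.987. The libraries also differed in how their values ran with the GC content of a transcript. Between transcripts of 38.7% and of 60.8% GC, the median deviation from the mean of all libraries rose by 1.12 to 2.67 on the log2 scale in the other 6 vials of day 0. In both vials that stood apart this value lay between -2.26 and -1.84, and in the 8 vials of day 4 between -1.68 and -0.41. The GC trend thus went with the day in the other 6 vials of day 0, but not in the vials that stood apart. It also differed between vials of the same RNA. Results are therefore also given without the 2 vials that stood apart and after each library was corrected for GC content. The part of the GC trend in a result was not tested. Among marker genes, 8 of 9 of ES cells were called lower and 0 higher (Pou5f1: 62.2 FPKM at day 0 and 0.864 at day 4), and 5 of 6 of endoderm higher and 0 lower. Of 6 RA response genes, 4 were called higher, such as the RA receptor gene Rarb (8.50, adjusted p = 0.0046), and 1 lower, Cyp26a1, which encodes an enzyme that breaks RA down, at 50.7 FPKM at day 0 and 8.88 at day 4. The list of fibroblast or feeder markers gave 3 of 5 higher and 1 lower, with a summed level of 28.6 and 10.6 FPKM at day 0 and 226 and 210 at day 4. Of 13 neural markers 4 were called higher and 5 lower, with a summed level of 53.1 and 36.3 FPKM at day 0 and 29.4 and 30.6 at day 4. Of 8 mesoderm and blood vessel markers 1 was called higher and 3 lower, and their sum went from 150 and 126 FPKM to 50.4 and 41.3. None of the markers in these lists was at 0 in all 16 libraries. The labels name the cell type embryonic stem cells, but at day 0 the mesoderm gene T was at 67.0 FPKM. The part of cell type composition in the results was not tested.

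Of the 10 genes, 1 was called higher (Cdkn1b) and 2 lower (Ccnd1 and Cdkn1a) at day 4, beside 16% and 14.5% of all genes, and 7 were not called. The median difference of the 10 genes was -0.47, beside -0.02 over all genes tested. It was -0.68 (all genes: -0.03) without the vials that stood apart and -0.25 (all genes: 0.03) after GC correction. Without the vials that stood apart, 2 of the 10 were called higher and 6 lower, but then 27.1% and 33.6% of all genes were as well (60.7% in all). After GC correction the 10 genes gave 3 higher and 4 lower calls, beside 27.6% and 24.4% of all genes (52% in all). In 4 of the 10 genes the 8 vials of one day did not overlap the 8 of the other, with Ccnd2 and Cdkn1b higher at day 4 and Ccnd1 and Cdkn1a lower. Over all genes, 19.8% were higher and 14.6% lower with no overlap of the vials, 34.4% in all.

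The 3 calls rested on both RNA samples of day 4. Without day 4 replicate 1 or replicate 2, limma called 0 of the 20496 genes, with 4935 and 4716 of them at an unadjusted p under 0.05. Then Ccnd1 gave -3.43 (adjusted p = 0.118) and -3.32 (adjusted p = 0.136), Cdkn1a -2.11 (adjusted p = 0.233) and -1.88 (adjusted p = 0.270), and Cdkn1b 1.45 (adjusted p = 0.157) and 1.15 (adjusted p = 0.200). Cdkn1b also lost its call in limma without day 0 replicate 1, at 1.198 (adjusted p = 0.0662). The direction of the 3 genes was the same each time.

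**Figure D1:**
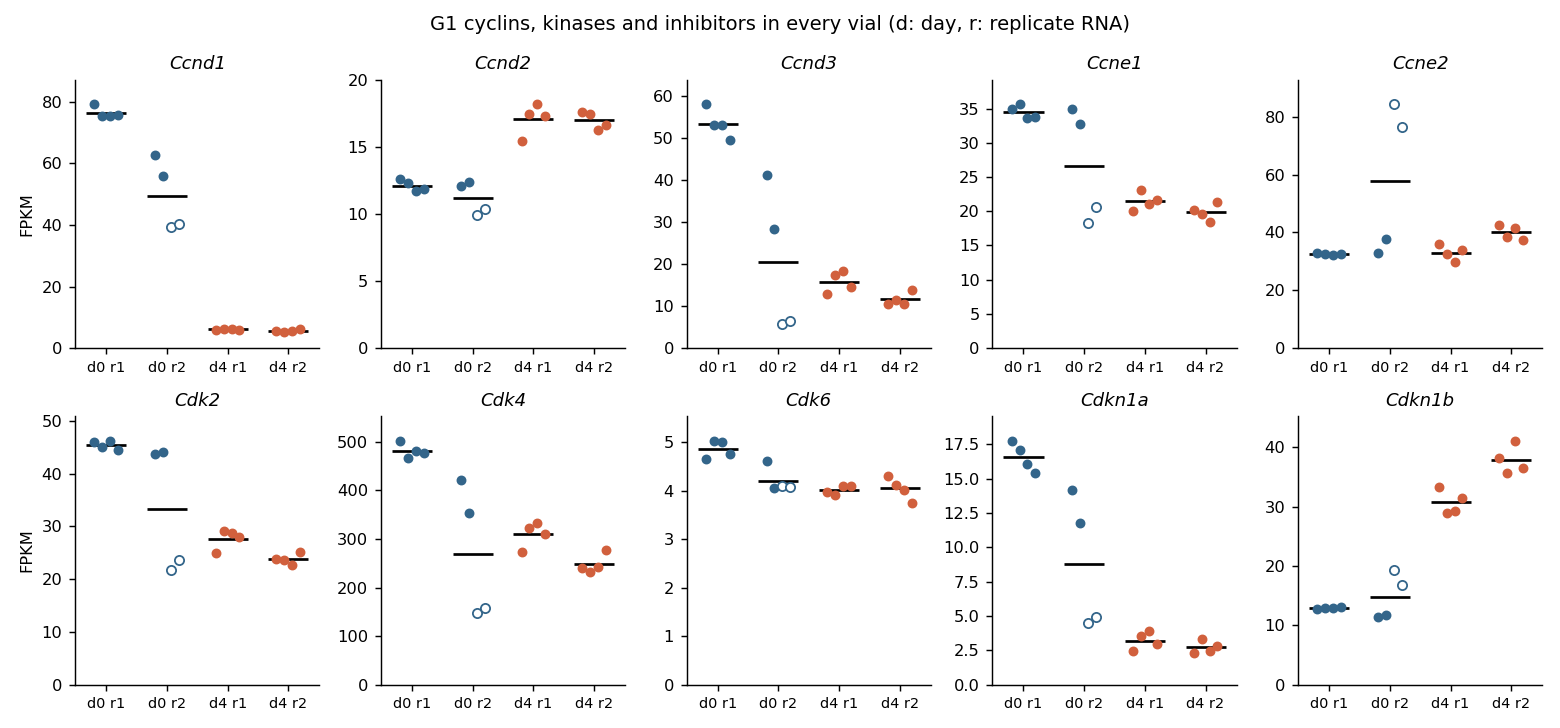
FPKM (linear axis from 0, a scale for each gene) of the 10 genes in every vial, with a column for each RNA sample (d: day, r: replicate), points for the 4 vials and a black line for their mean. Open points are the mix 3 and mix 4 vials of day 0 replicate 2, which lie apart from the other vials of day 0 in most genes. Ccnd1 lies between 39.4 and 79.2 FPKM at day 0 and between 5.14 and 6.19 at day 4.

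Ccnd1, Ccnd2 and Ccnd3 encode cyclins D1, D2 and D3, which link growth factor signals to Cdk4 and Cdk6. Ccnd1 fell, Ccnd2 was higher at day 4 in every vial without passing the test, and Ccnd3 depended on how the libraries were treated. Ccnd1 lies at chr7:144929931-144939831 on the minus strand of GRCm38 (mm10). At day 0 it measured 76.4 FPKM (replicate 1) and 49.5 FPKM (replicate 2), against 6.05 and 5.62 FPKM at day 4. Even the lowest vial of day 0, at 39.4 FPKM, was above the highest of day 4, at 6.19. The mean was 10.8 times as high at day 0 (63.0 ± 19.0 FPKM, SD, n = 2) as at day 4 (5.84 ± 0.307). The difference was -3.38 ± 0.26 (SE), with an adjusted p of 0.0066 in limma. It was -3.51 (adjusted p = 0.0012) without the vials that stood apart and -3.18 (adjusted p = 0.00067) after GC correction.

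Ccnd2 lies at chr6:127125162-127152188 on the minus strand. It measured 12.1 and 11.2 FPKM at day 0 and 17.1 and 17.0 at day 4. The vials reached at most 12.6 FPKM at day 0 and were at least 15.5 FPKM at day 4, so the days did not overlap. The mean at day 4 was 1.46 times that of day 0 and the difference 0.55 ± 0.15 (SE), with a limma adjusted p of 0.061. It was called at 0.48 without the vials that stood apart (adjusted p = 0.0084), and after GC correction 0.45 (adjusted p = 0.014).

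Ccnd3, the member with the highest GC content (59.7% in its most abundant transcript), lies at chr17:47505051-47599689 on the plus strand. It measured 53.5 and 20.5 FPKM at day 0 and 15.8 and 11.6 at day 4. In day 0 replicate 2 the mix 1 and 2 vials were at 41.3 and 28.4 FPKM and the mix 3 and 4 vials at 5.80 and 6.57 FPKM, below every vial of day 4. The difference was -1.29 ± 0.54 (SE, limma adjusted p = 0.14). It was -1.67 and called lower (adjusted p = 0.012) without the vials that stood apart, and 0.28 and called higher (adjusted p = 0.024) after GC correction. The direction of Ccnd3 is thus not settled by these values. Of its 3 RefSeq transcripts, NM_007632 held 95.3% and 95.9% of the FPKM at day 0 and 87.1% and 85.8% at day 4. The transcript NM_001081636 was at 0 in 7 of 8 vials of each day.

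Ccne1 and Ccne2 encode cyclins E1 and E2, which activate Cdk2 at the entry into S phase. Neither was called with all vials, and the treatment of the libraries moved them differently. Ccne1 lies at chr7:38097984-38107490 on the minus strand and measured 34.5 and 26.6 FPKM at day 0 and 21.5 and 19.9 at day 4. The 6 other vials of day 0 were at 32.7 FPKM or more and the day 4 vials at 23.2 or less, while the vials that stood apart, at 18.3 and 20.7 FPKM, lay among those of day 4. Its difference was -0.55 ± 0.19 (SE, limma adjusted p = 0.10). Without the vials that stood apart Ccne1 was called lower at -0.72 (adjusted p = 0.0042), and after GC correction it was -0.09 (adjusted p = 0.53).

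Ccne2 has the lowest GC content of the 10 genes (35.1%) and lies at chr4:11190433-11204779 on the plus strand. It measured 32.6 and 57.9 FPKM at day 0 and 33.0 and 40.0 at day 4. The high value of day 0 replicate 2 came from its mix 3 and 4 vials, at 84.4 and 76.3 FPKM, while its mix 1 and 2 vials were at 32.9 and 37.8. The difference was -0.26 ± 0.34 (SE, limma adjusted p = 0.58), and its 95% interval ran from -1.20 to 0.69. It was 0.10 (adjusted p = 0.54) without the vials that stood apart, and after GC correction Ccne2 was called lower at -0.96 (adjusted p = 0.0014). Most of its FPKM, 83.1% to 91.1% in the 4 RNA samples, belonged to the transcript NM_001282943. The transcript NM_001037134 averaged 0.382 and 0.182 FPKM at day 0 and was listed at 0 in all 8 vials of day 4. This transcript was called lower at -1.88 (limma over 28213 transcripts, adjusted p = 0.036, where 8.67% of transcripts were called lower and 10.2% higher, 18.9% in all). As day 4 is at 0, the size of this difference is set by the pseudocount, at -4.78 with 0.01 (limma adjusted p = 0.019) and -0.35, not called, with 1 (adjusted p = 0.084). The call was also lost without day 0 replicate 1 (limma adjusted p = 0.051) or either RNA sample of day 4 (adjusted p = 0.26 and 0.28).

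Cdk4 and Cdk6 are the partners of the D-type cyclins, and Cdk2 that of the E-type cyclins. With all vials none of the 3 kinases was called, and Cdk4 was by far the most abundant member at both days. Cdk4 lies at chr10:127063535-127067288 on the plus strand and measured 481 and 270 FPKM at day 0 and 310 and 248 at day 4. The RNA samples of the days overlapped, with 147 and 159 FPKM in the vials of day 0 replicate 2 that stood apart and 421 and 353 FPKM in its mix 1 and 2 vials. Its difference was -0.38 ± 0.35 (SE, limma adjusted p = 0.45). It was -0.64 and called lower (adjusted p = 0.044) without the vials that stood apart, and 0.21 (adjusted p = 0.19) after GC correction.

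Cdk6 lies at chr5:3341004-3531008 on the plus strand and had the lowest level of the 3 kinases. It measured 4.87 and 4.21 FPKM at day 0 and 4.02 and 4.05 at day 4. All 16 vials were between 3.75 and 5.03 FPKM, and the vials that stood apart, at 4.10 and 4.07, were within the range of the others. The difference was -0.16 ± 0.20 (SE, limma adjusted p = 0.55), with a 95% interval from -0.71 to 0.39. Cdk6 passed the test neither without these vials (-0.18, adjusted p = 0.25) nor after GC correction (-0.41, adjusted p = 0.11).

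Cdk2 lies at chr10:128697938-128705051 on the minus strand and measured 45.4 and 33.3 FPKM at day 0 and 27.7 and 23.9 at day 4. The 6 other vials of day 0, at 43.8 to 46.2 FPKM, were above all of day 4, which reached 29.0 FPKM, and those that stood apart, at 21.7 and 23.6, were among the lowest. The difference was -0.60 ± 0.22 (SE, limma adjusted p = 0.11). Cdk2 was called lower at -0.80 (adjusted p = 0.0064) without the vials that stood apart and at -0.63 (adjusted p = 0.029) after GC correction. Its difference thus lay between -0.80 and -0.60 in the 3 treatments of the libraries.

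Cdk2 has 2 RefSeq transcripts, of which NM_183417 carries an extra exon. This exon 6 of 8 is wholly coding, 144 bases long, and lies at chr10:128699976-128700119, on the minus strand. Its sequence is shown since it is the one exon that only 1 of the transcripts has (GENCODE M21 on GRCm38, transcript strand). Their first exons, of 319 and 292 bases, and last exons, of 1267 and 1272, also differ in length.
Cdk2 exon 6 of NM_183417: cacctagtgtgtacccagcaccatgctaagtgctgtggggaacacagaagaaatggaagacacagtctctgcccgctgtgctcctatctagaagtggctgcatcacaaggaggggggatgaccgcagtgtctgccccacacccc
The transcript without the exon, NM_016756, averaged 41.4 and 31.1 FPKM at day 0 and 24.5 and 21.1 at day 4. NM_183417 was at 4.06 and 2.20 FPKM at day 0 and at 3.19 and 2.77 at day 4, so it held 6.61% to 11.6% of the FPKM of the gene. The differences were -0.66 (limma adjusted p = 0.11) and -0.01 (adjusted p = 0.99), and neither was called. Without the vials that stood apart, NM_016756 was called lower at -0.85 (adjusted p = 0.0090) and NM_183417 was at -0.25 (adjusted p = 0.36). The log2 ratio of NM_183417 to NM_016756 differed between the days by 0.65 ± 0.26 (SE, limma over the transcript ratios of all genes, adjusted p = 0.22), with a 95% interval from -0.12 to 1.41, and was not called.

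**Figure D2:**
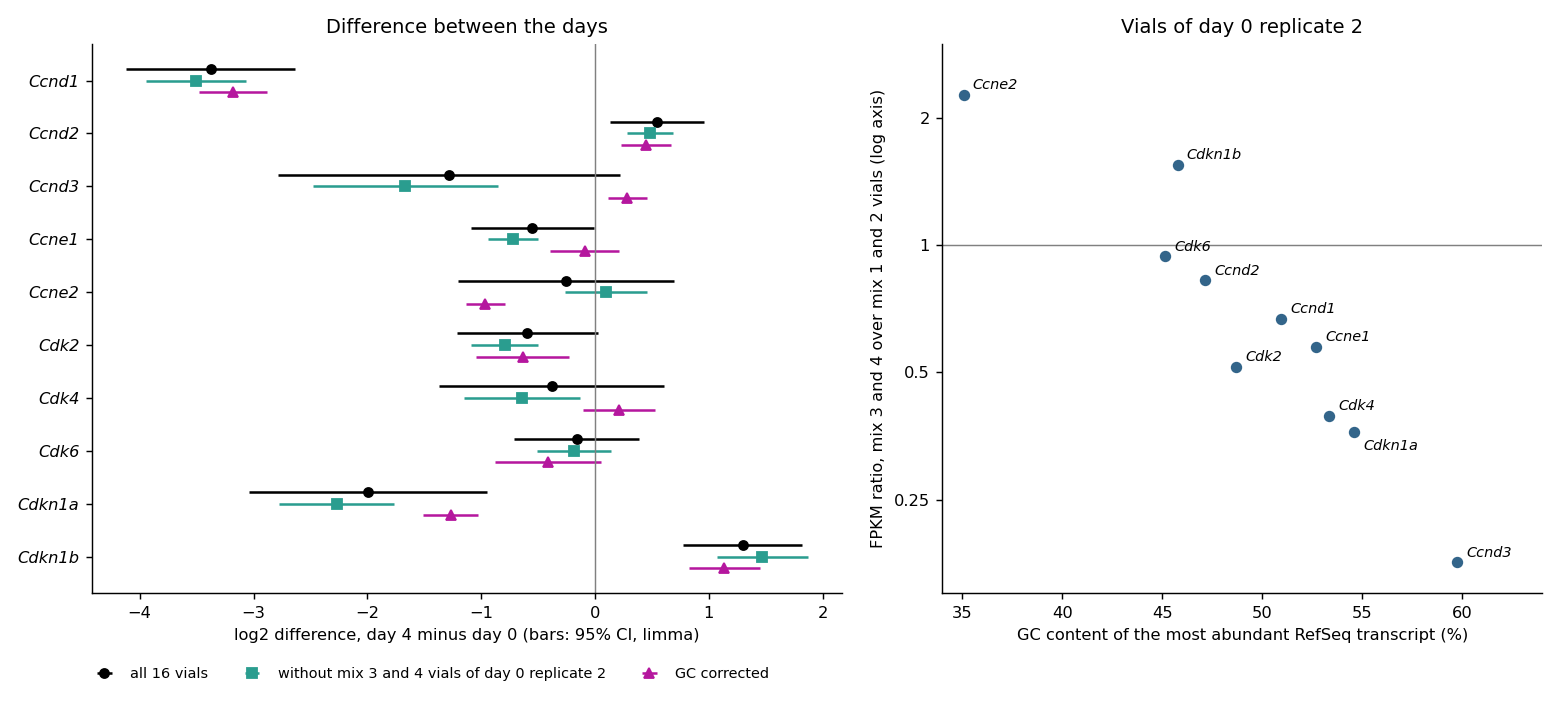
Left, log2 difference between the days (day 4 minus day 0) of the 10 genes with its 95% confidence interval from limma, for all 16 vials, without the mix 3 and mix 4 vials of day 0 replicate 2, and after GC correction. The intervals of Ccnd1, Cdkn1a, Ccnd2 and Cdkn1b stay on their side of 0 in all 3 treatments, while Ccnd3 moves from -1.29 to 0.28. Right, ratio of the mean FPKM of the mix 3 and 4 vials to that of the mix 1 and 2 vials within day 0 replicate 2 (log axis) against the GC content of the most abundant transcript of each gene. The ratio runs from 2.27 for Ccne2 at 35.1% GC to 0.178 for Ccnd3 at 59.7% GC.

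Cdkn1a and Cdkn1b encode p21 and p27, inhibitors of the Cip/Kip family, and they moved in opposite directions. Cdkn1a, a well-known target of p53, fell, and Cdkn1b, whose protein is also known to accumulate in cells that leave the cycle, rose. Cdkn1a lies at chr17:29090979-29100722 on the plus strand. It has 2 RefSeq transcripts with different first exons: NM_001111099 starts at position 29090979 (first exon to 29091101) and NM_007669 at 29093769 (first exon to 29093861). Their second exon, from 29098397 to 29098837, is shared. Their last exons both start at 29099344 but differ in length, with 358 bases in NM_001111099 and 1379 in NM_007669. The transcripts thus differ at both ends, and which end goes with a difference between them was not tested. The 250 bases before each start are shown, since 1 of the transcripts was called lower and the other was not (RefSeq sequences on GRCm38.p6, plus strand). Capitals mark a p53 response element of 20 bases with at most 1 mismatch in the first, and the GC boxes GGGCGG in the second.
Cdkn1a, before NM_001111099, chr17:29090729-29090978: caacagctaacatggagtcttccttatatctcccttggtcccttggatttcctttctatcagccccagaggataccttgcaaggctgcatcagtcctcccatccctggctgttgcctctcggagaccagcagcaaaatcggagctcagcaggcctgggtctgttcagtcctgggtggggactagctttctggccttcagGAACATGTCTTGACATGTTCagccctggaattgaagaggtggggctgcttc
Cdkn1a, before NM_007669, chr17:29093519-29093768: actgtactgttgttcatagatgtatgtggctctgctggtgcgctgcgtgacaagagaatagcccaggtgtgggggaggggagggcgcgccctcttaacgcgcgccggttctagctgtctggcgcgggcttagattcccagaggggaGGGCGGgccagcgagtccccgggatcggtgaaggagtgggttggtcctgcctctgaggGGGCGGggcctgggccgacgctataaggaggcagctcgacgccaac
The p53 element spans positions -51 to -32 from the start of NM_001111099. It also lies upstream of the start of NM_007669, outside the 250 bases searched before that start. Such an element was found in 25 of 32851 promoters of this length (0.0761%). GC boxes lie at -104 to -99 and at -46 to -41 from the start of NM_007669, and 32.7% of promoters hold at least 1. These were searched on both strands, together with the E-box motif (CACGTG), the CCAAT box, the TATA box (TATAAA), the cAMP element (TGACGTCA), an RA half-site pair of the DR5 type, and the E2F motif as TTTGGCGC, TTTCCCGC, TTTGCCGC or TTTCGCGC. A match describes the letters of this window only.

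Summed over both transcripts, Cdkn1a measured 16.6 and 8.82 FPKM at day 0 and 3.22 and 2.73 at day 4. The vials of the days did not overlap, although those that stood apart, at 4.47 and 4.91 FPKM, were close to the highest of day 4 at 3.92. The mean was 4.27 times as high at day 0 (12.7 ± 5.50 FPKM, SD, n = 2) as at day 4 (2.98 ± 0.351). The difference was -1.99 ± 0.37 (SE, limma adjusted p = 0.030). It was -2.27 (adjusted p = 0.0024) without the vials that stood apart and -1.27 (adjusted p = 0.0015) after GC correction.

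The transcript called lower was NM_007669, which averaged 14.6 and 7.14 FPKM at day 0 and 1.91 and 1.24 at day 4, with a difference of -2.65 (limma over all transcripts, adjusted p = 0.040). It lost this call with any 1 of the 4 RNA samples left out, at -3.16 to -2.14 (limma adjusted p = 0.0555 to 0.292). NM_001111099 averaged 2.02 and 1.68 FPKM at day 0 and 1.31 and 1.49 at day 4, with a difference of -0.38 (adjusted p = 0.38). The share of NM_007669 in the gene was 87.8% and 81.0% at day 0 and 59.3% and 45.5% at day 4. Within a vial, the log2 ratio of NM_007669 to NM_001111099 averaged 2.88 and 1.74 in the RNA samples of day 0 and 0.47 and -0.27 in those of day 4. In the vials that stood apart the ratio was 0.41 and 1.16, within the range of day 4, and in the mix 1 and 2 vials of the same RNA 2.73 and 2.65. In a limma fit of the log2 ratio of every transcript to the others of its gene, over 12127 transcripts, the ratio of NM_007669 differed between the days by -2.27 ± 0.49 (SE, adjusted p = 0.12) and was not called. That fit called 0% of the ratios, 0 of 12127, with 3360 at an unadjusted p under 0.05. Without the vials that stood apart the ratio was called lower at -2.61 ± 0.36 (SE, limma adjusted p = 0.035), where 11.3% of the ratios were called lower (21.8% in either direction). The fit of the ratios was added after the data were seen. RSEM divides the fragments of the shared exons between both transcripts by estimation, which adds an error that is not in these values.

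**Figure D3:**
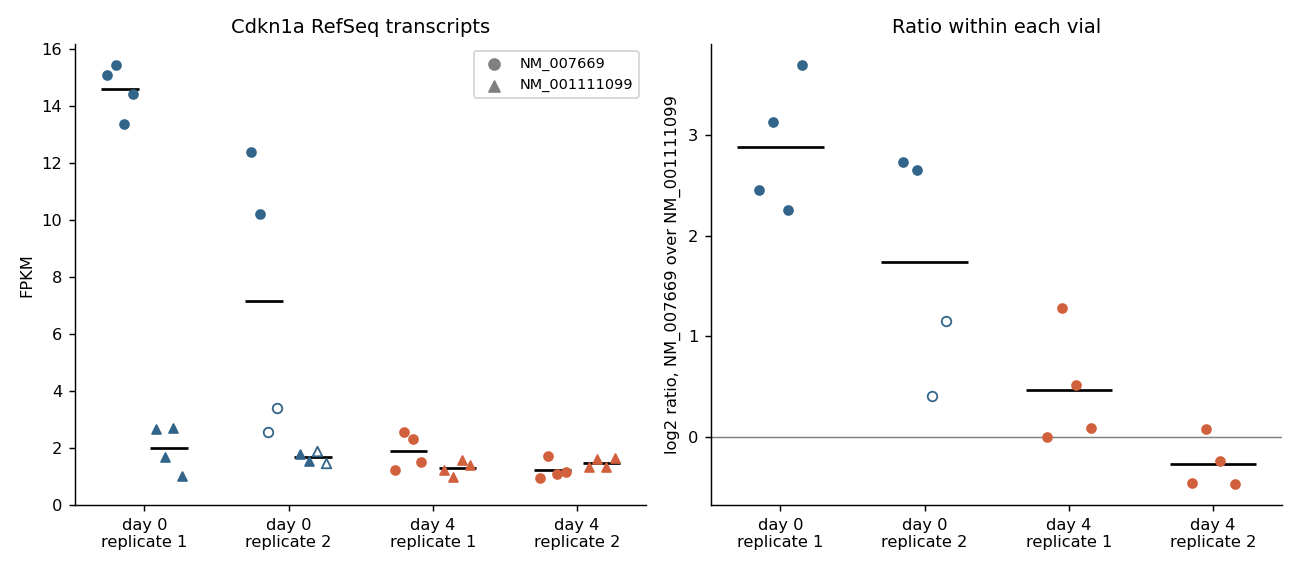
Left, FPKM of both RefSeq transcripts of Cdkn1a in each vial, with circles for NM_007669, triangles for NM_001111099 and a black line for the mean of the 4 vials. Right, log2 ratio of the transcripts within each vial. Open points are the mix 3 and mix 4 vials of day 0 replicate 2. NM_007669 goes from 14.6 and 7.14 FPKM at day 0 to 1.91 and 1.24 at day 4, while NM_001111099 stays between 0.997 and 2.71 FPKM in all 16 vials.

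Cdkn1b lies at chr6:134920401-134925525 on the plus strand. It measured 12.9 and 14.8 FPKM at day 0 and 30.7 and 37.9 at day 4. All vials of day 4, at 29.0 FPKM or more, were above all of day 0, whose highest values, 19.3 and 16.7 FPKM, were in the vials that stood apart. The mean at day 4 (34.3 ± 5.06 FPKM, SD, n = 2) was 2.47 times that of day 0 (13.9 ± 1.34). The difference was 1.30 ± 0.19 (SE, limma adjusted p = 0.018). It was 1.47 (adjusted p = 0.0035) without the vials that stood apart and 1.14 (adjusted p = 0.0032) after GC correction.

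The shares of Ccnd1 and Ccnd2 within the D-type cyclins differed between the days by more than between the RNA samples of a day. So did those of Cdkn1a and Cdkn1b within their pair. Ccnd1 was the most abundant D-type cyclin at day 0, with 53.8% and 61.0% of their summed FPKM, and the least abundant at day 4, with 15.5% and 16.4%. Ccnd2 was the least abundant at day 0, with 8.54% and 13.8%, and the most abundant at day 4, with 44.0% and 49.7%. Its order with Ccnd3 did not hold in every vial. In the vials that stood apart Ccnd3, at 5.80 and 6.57 FPKM, was below Ccnd2, at 9.92 and 10.4. In the mix 3 vial of day 4 replicate 1 Ccnd3, at 18.3 FPKM, was above Ccnd2, at 18.2. The shares are of values not corrected for GC content. Ccnd3 held 37.7% and 25.2% at day 0 and 40.5% and 33.9% at day 4, so its share overlapped between the days. The D-type cyclins together came to 142 and 81.3 FPKM at day 0 and to 39.0 and 34.3 at day 4. Of the summed FPKM of Cdkn1a and Cdkn1b, the latter held 43.8% and 62.7% at day 0 and 90.5% and 93.3% at day 4. Their sum was 29.5 and 23.6 FPKM at day 0 and 33.9 and 40.6 at day 4. The pair is not the whole Cip/Kip family, as it leaves out Cdkn1c, the most abundant of its genes at both days. With Cdkn1c included, Cdkn1b held 21.1% and 29.1% at day 0 and 16.4% and 18.1% at day 4, Cdkn1a 27.2% and 17.3% against 1.73% and 1.31%, and Cdkn1c 51.7% and 53.6% against 81.8% and 80.6%.

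The kinases kept their order, with Cdk6 at 1.00% to 1.61% of the summed FPKM of Cdk4 and Cdk6 in the 4 RNA samples. Ccne2 held 48.6% and 68.5% of the E-type cyclins at day 0 and 60.6% and 66.8% at day 4, which overlap. Without the vials that stood apart, its share in day 0 replicate 2 was 51.1%, so that the days no longer overlapped, and that of Cdk6 was 1.11%, below both values of day 4 (1.28% and 1.61%). The overlap in these groups thus rested on the 2 vials. The share of Ccnd1 in that RNA sample was then 55.7% and that of Cdkn1b in the pair 47.2%. Ordered by mean FPKM, day 0 ran Cdk4 (376), Ccnd1 (63.0), Ccne2 (45.2), Cdk2 (39.4), Ccnd3 (37.0), Ccne1 (30.6), Cdkn1b (13.9), Cdkn1a (12.7), Ccnd2 (11.7) and Cdk6 (4.54). At day 4 the order was Cdk4 (279), Ccne2 (36.5), Cdkn1b (34.3), Cdk2 (25.8), Ccne1 (20.7), Ccnd2 (17.1), Ccnd3 (13.7), Ccnd1 (5.84), Cdk6 (4.04) and Cdkn1a (2.98). Neighbours from Ccnd1 to Ccne1 and from Cdkn1b to Ccnd2 at day 0, and Ccne2 and Cdkn1b at day 4, differed by less than the spread of their RNA samples. Both orders are of values not corrected for GC content.

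**Figure D4:**
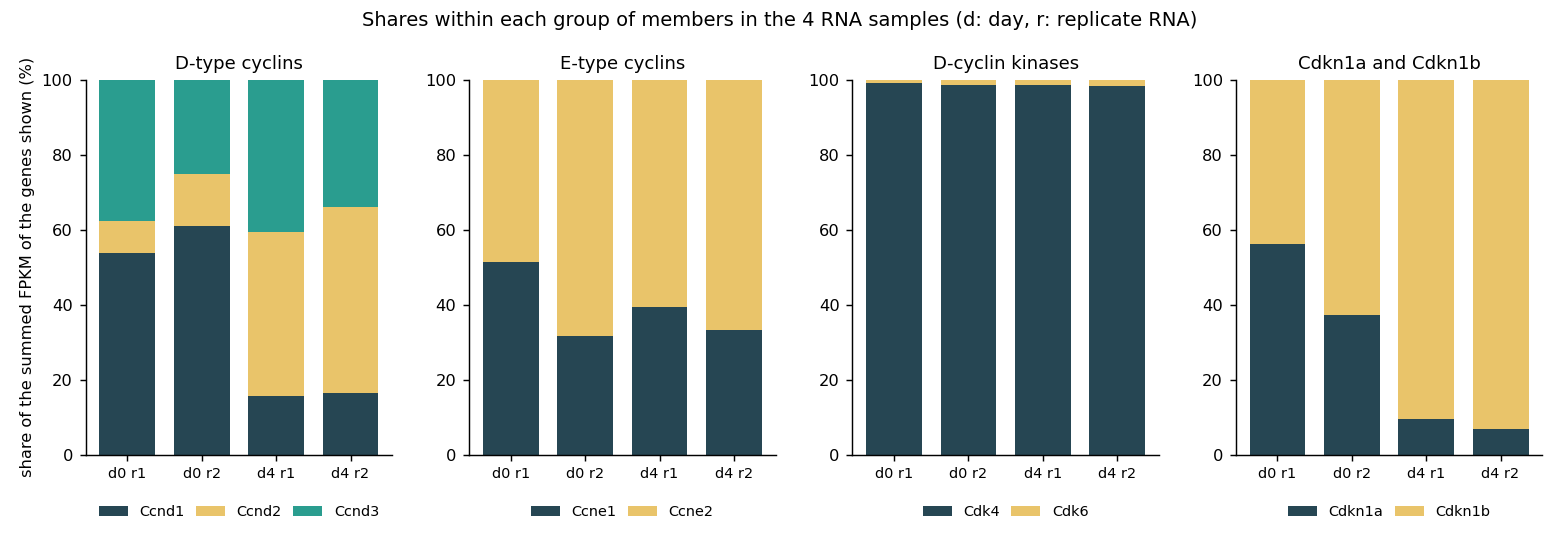
Share of each gene in the summed FPKM of the genes shown in its panel (linear axis from 0 to 100%) in the 4 RNA samples (d: day, r: replicate), each the mean of 4 vials. The last panel leaves out Cdkn1c, the third Cip/Kip gene. Ccnd1 holds 53.8% and 61.0% of the D-type cyclins at day 0 and 15.5% and 16.4% at day 4, and Cdkn1b holds 90.5% and 93.3% of the pair of Cdkn1a and Cdkn1b at day 4.

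Other cell cycle genes and further cyclins and kinases were counted in 8 lists with 127 genes in all. The lists are not limited to G1 and include genes of S phase, G2 and mitosis. Of the 127 genes, 11 (8.66%) were called higher and 32 (25.2%) lower at day 4 in limma, beside 16% and 14.5% of all genes. Their median was -0.36 (all genes: -0.02). Without the vials that stood apart 27 (21.3%) were called higher and 62 (48.8%) lower, beside 27.1% and 33.6% of all genes. After GC correction the counts were 22 (17.3%) and 72 (56.7%), beside 27.6% and 24.4%. Of 6 further inhibitors of cyclin-dependent kinases (CDKs), 3 were called higher and 0 lower, with a median of 1.17. Without the vials that stood apart 4 were called higher and 0 lower, and after GC correction 5 and 0. Cdkn1c (p57), the third Cip/Kip gene, was at 29.4 FPKM at day 0 and 160 at day 4, a difference of 2.44 ± 0.16 (SE, adjusted p = 0.0052). After GC correction its difference was 3.48 ± 0.83 (SE, limma adjusted p = 0.032). Cdkn2c, an inhibitor of Cdk4 and Cdk6 of the INK4 family, went from 0.519 to 4.30 FPKM (2.84, adjusted p = 0.0083). The third inhibitor called with all vials, Cdkn2b of the same family, was named after its values were seen and rose by 1.80 (adjusted p = 0.016).

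Of the retinoblastoma family, which these kinases phosphorylate, 1 of 3 was called higher and 0 lower, beside 16% and 14.5% of all genes. Rbl2 (p130) went from 0.982 to 9.33 FPKM, a difference of 3.12 ± 0.20 (SE, adjusted p = 0.0053), and its vials did not overlap between the days. Of 10 E2F and DP factors, 1 (10%) was called higher and 3 (30%) lower, beside 16% and 14.5% of all genes. E2f4, an E2F that often represses, fell by 2.11 (adjusted p = 0.030) and the repressor E2f7 fell by 1.80 (adjusted p = 0.014), while the DP partner Tfdp2 rose by 1.30 (adjusted p = 0.013). Tfdp1, named after its values were seen, fell by 0.77 (adjusted p = 0.040). E2f4 was at -1.03 (adjusted p = 0.0015) after GC correction. The E2F and DP list then gave 2 higher and 4 lower and the retinoblastoma family 2 higher, beside 27.6% and 24.4% of all genes. Without the vials that stood apart the counts were 1 higher and 6 lower, and 3 higher. Of all genes 27.1% were then called higher and 33.6% lower.

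Among 21 CDK activators and regulators of inhibitor turnover, 0 were called higher and 1 (4.76%) lower, beside 16% and 14.5% of all genes. The median was -0.12. The lower gene was the phosphatase Cdc25a, which activates Cdk2, at 34.1 FPKM at day 0 and 20.1 at day 4 (-0.76, adjusted p = 0.041). After GC correction 3 of these were called higher and 9 (42.9%) lower, beside 27.6% and 24.4% of all genes. Skp2, whose product directs the breakdown of p27 and which was named after its values were seen, was at 35.3 and 36.0 FPKM (0.03, adjusted p = 0.87).

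Of the genes that act after G1, most were not called, and those called were lower except for 1. In the S phase and replication list 1 of 29 (3.45%) was called higher and 9 (31.0%) lower, beside 16% and 14.5% of all genes. The median was -0.39. Orc1, a subunit of the origin recognition complex, fell by 1.97 (adjusted p = 0.0061) and the replication factor Mcm10 by 1.95 (adjusted p = 0.012). The gene called higher was Ccna1, cyclin A1, at 0.0295 FPKM at day 0 and 0.186 at day 4 (1.16, adjusted p = 0.023). With a pseudocount of 0.01, with no filter on low values, with the mix 4 vials only or without either RNA sample of day 4, 0 genes of this list were called higher by limma. Of 21 G2 and mitosis genes, 9 (42.9%) were called lower and 0 higher, with a median of -0.73. Mybl2, a transcription factor of cycling cells, fell by 3.05 (adjusted p = 0.023) and Cdc20, an activator of the anaphase-promoting complex, by 2.13 (adjusted p = 0.031). With the vials that stood apart left out, 17 (58.6%) of the S phase genes and 15 (71.4%) of the G2 and mitosis genes were called lower, beside 33.6% of all genes, and 2 and 0 higher. After GC correction the counts were 1 higher and 23 (79.3%) lower for S phase and 0 higher and 20 (95.2%) lower for G2 and mitosis, beside 24.4% of all genes called lower.

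Of 19 mitogen and p53 inputs to G1, 2 (10.5%) were called higher and 6 (31.6%) lower, beside 16% and 14.5% of all genes. Their median was -0.58. Myc, which activates growth and cell cycle genes, was at 27.4 FPKM at day 0 and 1.21 at day 4 (-4.32 ± 0.41, SE, adjusted p = 0.0086). The stress gene Gadd45g fell by 4.90 (adjusted p = 0.022), while its relative Gadd45a rose by 1.29 (adjusted p = 0.016) and the bHLH inhibitor Id2 by 2.25 (adjusted p = 0.0055). Named after their values were seen, Trp53, which encodes p53, fell by 2.19 (adjusted p = 0.033) and its target and regulator Mdm2 by 1.09 (adjusted p = 0.013). The list also holds Trp53inp1, Ccng1, Bax, Bbc3 and Sesn2, whose values are not given here. Trp53 and Mdm2 thus do not stand for the p53 genes of the list as a group. After GC correction Trp53 was at -1.46 (adjusted p = 0.0046) and Mdm2 at -1.24 (adjusted p = 0.0010). The list then gave 3 genes called higher and 9 lower, beside 27.6% and 24.4% of all genes. Without the vials that stood apart it gave 4 higher and 10 lower, beside 27.1% and 33.6%.

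Among 18 other cyclins and kinases, 3 (16.7%) were called higher and 4 (22.2%) lower, with a median of 0.11, beside 16% and 14.5% of all genes. Without the vials that stood apart 8 were called higher and 7 lower, beside 27.1% and 33.6% of all genes. After GC correction the counts were 6 and 7, beside 27.6% and 24.4%, and the median was -0.09. Ccng2, cyclin G2, which is known from arrested cells, went from 15.5 to 73.1 FPKM (2.25, adjusted p = 0.0085), and the kinase gene Cdk14 rose by 1.17 (adjusted p = 0.029). Ccni, named after its values were seen, rose by 1.05 (adjusted p = 0.035). Cdk18 fell by 3.27 (adjusted p = 0.020) and Ccnk by 1.02 (adjusted p = 0.038). Ccnt1 and Cdk12, named after their values were seen, fell by 0.86 (adjusted p = 0.041) and 0.78 (adjusted p = 0.031).

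**Figure D5:**
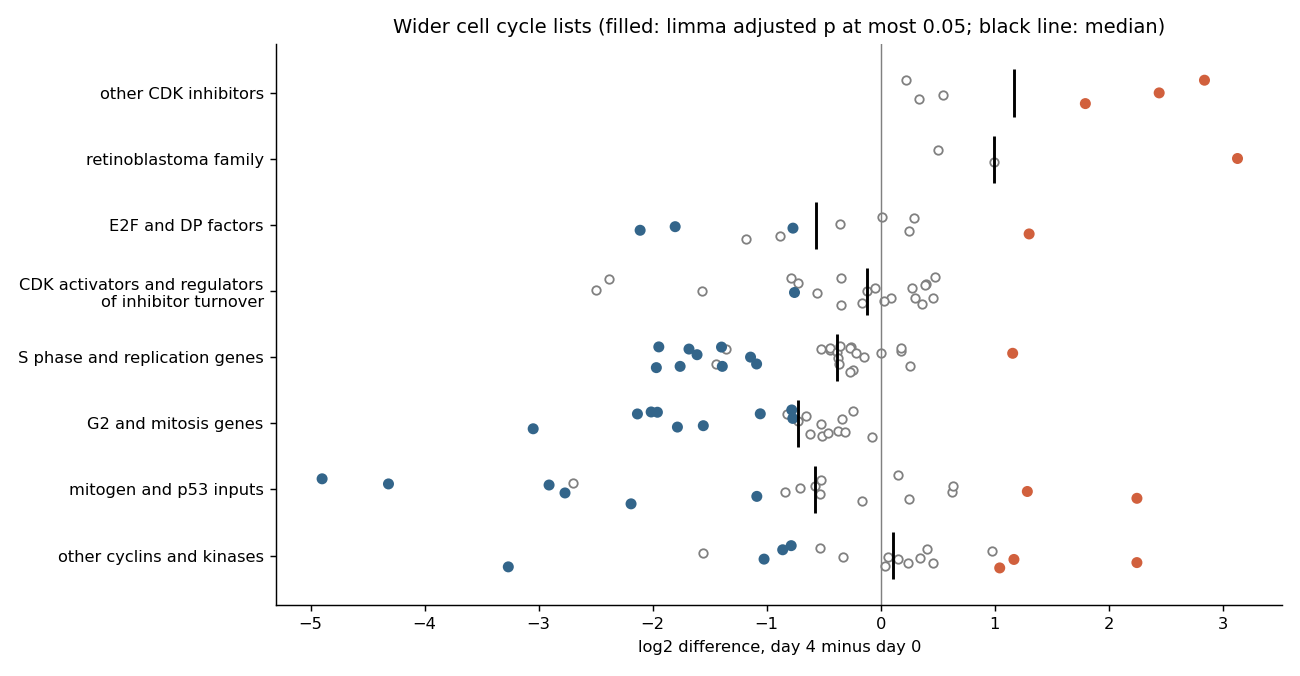
Log2 difference (day 4 minus day 0) of the 127 genes of 8 cell cycle lists, with a point for each gene, filled in red where limma called it higher and in blue where lower, open where not called, and a black line for the median of the list. Vertical scatter within a list has no meaning. The median is 1.17 for the other CDK inhibitors and -0.73 for the G2 and mitosis genes.

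For the 3 members with the largest differences, the genes with the most similar pattern over the 16 libraries were taken by the Euclidean distance of centred log2 values among 11574 genes. The genes nearest to Ccnd1 were Slc2a3, a glucose transporter gene, at a distance of 0.356, Spata13 at 0.559 and Rftn1 at 0.674. Slc2a3 was at 221 FPKM at day 0 and 20.7 at day 4. Nearest to Cdkn1a were Akap1 at 0.430, Zbtb40 at 0.470 and Rab11fip4 at 0.490. Nearest to Cdkn1b were Plpp6 at 0.325, Gng12 at 0.366 and Commd3 at 0.380, and Commd3 went from 42.8 to 106 FPKM. The libraries share the day and the GC trend, so the distances describe these 16 libraries only.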

How the data were processed

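The authors aligned the reads with Bowtie2 2.1.0 to RefSeq transcripts of mm10 plus the spike-in transcripts, estimated abundances with RSEM 1.2.18 for stranded pairs, and deposited FPKM scaled with a TMM factor per library, as 1 table of 33750 rows. The submitters' processing notes also name TopHat2 2.0.10, whose output was not used here. All 16 columns matched a sample title (0 without a sample). The 48 spike-in rows and 1 row of 1700047L14Rik, which the study treats separately, were left out. Of 33702 RefSeq rows, 99.2% matched a gene symbol of the RefSeq gene table (GRCm38.p6), and 97.4% had a GC content from GENCODE M21 transcripts.

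FPKM were summed per gene and averaged over the 4 vials of each RNA sample. The 3673 genes at 0 in all 16 libraries were left out. log2(FPKM + 0.1) of 2 against 2 RNA samples was fitted with limma 3.58.1 in R 4.3.3 (lmFit, eBayes with trend), with Benjamini-Hochberg adjustment over all genes, or over all 28213 transcripts above 0. Fold changes on this scale understate the change of low genes. Fragments per value are unknown, so no counting error is given. The GC correction removed from each library its median deviation from the mean of all libraries in 20 GC bins, set from 13893 transcripts of 1 FPKM or more on average. Biological differences between the days that run with GC content are removed as well.

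The limma fits were also run on simulated data with known differences. These data held no GC trend and no vials that stood apart, so they do not cover these features of the libraries. Python 3.11.15 with pandas 2.3.3 and matplotlib 3.10.9 did the rest. Promoters of 7 of the 10 genes (9 promoters) were in the RefSeq promoter table used. The members, lists, motifs and tests were chosen with earlier results of these data known. The rule for named genes takes all members, from each cell cycle list the 2 genes called higher and the 2 called lower with the largest differences, and from each marker list the genes with the highest FPKM of each day. For the 3 members that differed most it adds the 3 nearest genes with a mean of at least 1 FPKM. Other names are given as chosen after their values were seen. Not every marker gene that the rule takes is named in the text. Alternatives covered pseudocounts, filters on low values, scaling, the variance model, subsets of vials, a replicate block and each RNA sample left out. The use of mix 1 and 2 vials only, the limma fit of transcript ratios (trend on the level of the gene) and the Cip/Kip shares with Cdkn1c were added after the data were seen.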

Additional observations from a re-analysis of the deposited data

How the results depend on the processing

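In 19 alternatives, Ccnd1, Ccnd2, Ccne1, Cdk2, Cdk6, Cdkn1a and Cdkn1b kept their direction, and Cdk6 was called in none of them. The cause of a lost or gained call was not tested. With the mix 4 vials only, Ccnd1 (-3.16, limma adjusted p = 0.059), Cdkn1a (-1.56, adjusted p = 0.33) and Cdkn1b (1.19, adjusted p = 0.082) were not called, Cdk4 was 0.092, and the shares of Ccnd1 and Cdk6 in their families at day 0 were 62.8% and 1.74%. Cdkn1a also lost its call with no filter on low values (-1.99, adjusted p = 0.081) and with the mean of the log2 values of the vials (-1.92, adjusted p = 0.055). With a pseudocount of 1, NM_001037134 of Ccne2 (-0.35) and NM_007669 of Cdkn1a (-2.14) were not called. Ccnd2 was called with no filter and with no variance trend (0.55 in both), and with 16 vials and the RNA sample as a random block (0.55).

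Without the mix 3 and 4 vials of day 0 replicate 2, calls were gained by Ccnd2 (0.48), Ccnd3 (-1.67), Ccne1 (-0.72), Cdk2 (-0.80), Cdk4 (-0.64) and the transcripts NM_007632 of Ccnd3 (-1.80), NM_009830 of Ccne2 (-0.44) and NM_016756 of Cdk2 (-0.85), and Cdkn1b was at 1.47. Direction changed for Ccne2 (0.10), NM_001282943 of Ccne2 (0.19) and NM_001081635 of Ccnd3 (-0.23). With the mix 1 and 2 vials only, Ccnd2 (0.46), Ccnd3 (-1.76), Ccne1 (-0.73), Cdk2 (-0.82), NM_007632 (-1.83) and NM_016756 (-0.88) were called, and Ccne2 (0.13), NM_001282943 (0.23) and NM_001081635 (-1.15) changed direction. GC correction gave calls, alone and with the replicate block, for Ccnd2 (0.45), Ccne2 (-0.96) and Cdk2 (-0.63), and turned Ccnd3 (0.28) and Cdk4 (0.21).

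The replicate numbers are shared by the days, but the labels do not say that they pair the RNA samples. Over 11584 genes, replicate 1 minus replicate 2 correlated between the days with r = 0.768 (0.622 without the vials that stood apart). The rise in the GC trend was 2.43 to 2.67 in replicate 1 and -2.26 to 1.94 in replicate 2 at day 0. At day 4 it was -1.20 to -0.41 in replicate 1 and -1.68 to -1.09 in replicate 2. The part of the GC trend in this correlation was not tested. With the replicate block Ccnd3 (-1.29), Ccne1 (-0.55), Cdk2 (-0.60), NM_007632 (-1.43) and NM_016756 (-0.66) were called, so that 1 member was called higher and 5 lower, beside 22.5% and 29.1% of all genes (51.6% in all).

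With 1 RNA sample left out in turn, the lone sample of a day is assumed to vary like the others. Differences ran from -3.69 to -3.07 for Ccnd1, 0.49 to 0.60 for Ccnd2, -1.97 to -0.60 for Ccnd3, -0.74 to -0.37 for Ccne1, -0.67 to 0.16 for Ccne2, -0.82 to -0.37 for Cdk2, -0.80 to 0.038 for Cdk4, -0.26 to -0.059 for Cdk6, -2.45 to -1.54 for Cdkn1a and 1.15 to 1.45 for Cdkn1b. For transcripts they ran from -0.45 to 0.92 for NM_001081635, -2.11 to -0.75 for NM_007632, -1.05 to -0.52 for NM_009830, -0.86 to -0.45 for NM_016756, -0.78 to 1.33 for NM_001081636, -2.27 to -1.49 for NM_001037134, -0.61 to 0.27 for NM_001282943, -0.44 to 0.42 for NM_183417 and -3.16 to -2.14 for NM_007669. Limma called 0 transcripts without day 0 replicate 1, day 4 replicate 1 or day 4 replicate 2, with 11394, 5766 and 5476 at an unadjusted p under 0.05.

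Over all genes, 3281 were called higher and 2972 lower. Leaving out an RNA sample gave 0 to 3670 and 0 to 5552. The counts were 2092 higher for a mean of at least 1 FPKM, 2569 and 1644 with no filter, 4580 lower with 16 vials, 1044 and 367 with the mix 4 vials only, 5552 and 6880 without the vials that stood apart, 5177 and 6424 with mix 1 and 2 vials only, 5961 lower with the replicate block, 5664 and 4998 after GC correction and 6098 and 5589 with both. The 8 cell cycle lists went from 11 higher and 32 lower to 21 lower with a pseudocount of 1, 12 lower with no filter, 15 lower with log2 means, 21 and 55 with 16 vials, 4 and 3 with mix 4 vials only, 27 and 62 without the vials that stood apart, 28 and 61 with mix 1 and 2 vials only, 53 lower with the replicate block, 22 and 72 after GC correction and 26 and 77 with both. Leaving out an RNA sample gave 0 to 14 higher and 0 to 50 lower. For the transcript ratios of Cdkn1a and Cdk2, leaving out an RNA sample gave -2.66 to -1.89 and 0.42 to 0.87, called in none. The number of fragments behind a value is unknown, so the depth that limits low transcripts such as NM_001037134 cannot be stated.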
